A study of Caenorhabditis elegans with 92 samples.

Results

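The transcript levels of 9 Caenorhabditis elegans genes that neurons use to make, load or release neurotransmitter were followed in 11 RNA-seq libraries. The genes were chosen by name, as unc-17 (ZC416.8), cho-1 (C48D1.3), unc-47 (T20G5.6), eat-4 (ZK512.6), cat-2 (B0432.5), tph-1 (ZK1290.2), snb-1 (T10H9.4), rab-3 (C18A3.6) and unc-13 (ZK524.2), and all 9 were found, each on 1 row, among the 20376 genes listed for both larvae and embryos. The study asked how condensin complexes bind and regulate the genome, and compared kle-2 mutant larvae to learn how loss of a condensin II subunit affects transcript levels.

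The libraries came from 3 samples of homozygous kle-2 larvae, 3 samples of heterozygous kle-2 larvae and 5 samples of wild-type N2 mixed stage embryos. Both larval groups were L2-L3 animals of strain VC768, which carries the null allele ok1151 over the translocation balancer hT2 [bli-4(e937) let-?(q782) qIs48] of chromosomes I and III. The homozygous larvae were the GFP-negative animals without the balancer, and the heterozygous larvae were the GFP-positive animals that carried it, so the 2 groups also differed in the balancer chromosomes. About 500 larvae were hand-picked for a library. Homozygous kle-2 animals still receive KLE-2 from their mothers and reach adulthood. The embryos were released from gravid adults by bleaching and were not staged, and the labels do not say whether a given embryo sample came from liquid culture or from plates. Nothing in the labels ties replicates to separate cultures, so p-values measure only the spread between these samples, which may be technical.

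Levels are given as FPKM, a fragment count scaled both to transcript length and to the size of the library, so that genes can be compared per length within a library. The files hold no read counts, so depth was known only in relative terms, from the steps between the lowest FPKM values: the deepest library had 1.97 times the reads of the shallowest among larvae and 2.46 times among embryos. The transcript of the mutated gene, kle-2, was present at 3.54, 4.24 and 6.59 FPKM in the homozygous larvae, against 7.83, 10.0 and 12.8 FPKM in the heterozygous larvae, and the groups did not overlap and stood in the direction of their labels. Its log2 fold change was -0.97 ± 0.28 (SE), with an adjusted p from limma of 0.313, or 0.0130 when replicate number entered the fit as a block.

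A neuron releases its transmitter from synaptic vesicles. An enzyme makes the transmitter, a transporter in the vesicle membrane loads it, and the vesicle is docked, primed and fused with the plasma membrane by proteins that nearly all synapses share. Because a transmitter is made by some neurons only, the synthesis and loading genes mark classes of neurons, whereas the release genes are used across the nervous system. In whole animals or embryos, fewer cells of a type and less RNA per cell cannot be told apart.

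Acetylcholine is the main excitatory transmitter of the worm's motor neurons. unc-17, which encodes the transporter that fills vesicles with acetylcholine, stood at 20.9, 22.4 and 20.1 FPKM in homozygous larvae, against 23.4, 21.99 and 23.4 FPKM in heterozygous larvae (values are in the order of the replicate numbers throughout). In embryos it measured 10.7, 20.5, 18.1, 29.8 and 3.47 FPKM. The 6 larval values lay within 1.16-fold of each other, the narrowest spread of the 9 genes, and the embryo values differed up to 8.61-fold and extended both above and below them. unc-17 lies inside an intron of cha-1, the choline acetyltransferase gene, with which it shares its first exon, and cha-1 was not matched to a row of its own, so reads of the 2 genes cannot be told apart here. cho-1, the choline transporter that returns choline to cholinergic terminals, had 3.70, 4.71 and 6.76 FPKM in homozygous larvae, against 4.15, 4.89 and 7.36 FPKM in heterozygous larvae. The embryos had 0.960, 2.31, 2.41, 4.55 and 0.577 FPKM of cho-1. Only embryo replicate 4 reached the range of the larvae.

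Among the genes of the amino acid transmitters, the vesicular GABA transporter gene unc-47 gave 2.22, 2.84 and 4.77 FPKM in homozygous larvae, against 2.94, 4.10 and 3.42 FPKM in heterozygous larvae. Its embryo values were 3.75, 5.65, 6.11, 8.54 and 1.45 FPKM, and 3 of these exceeded every larval value. The vesicular glutamate transporter gene eat-4 gave 2.98, 3.67 and 6.11 FPKM in homozygous larvae, against 4.20, 4.81 and 5.11 FPKM in heterozygous larvae. In embryos eat-4 ranged from 0.514 FPKM in replicate 5 to 8.62 FPKM in replicate 4, with 1.85, 3.59 and 4.62 FPKM in replicates 1 to 3. This was the widest spread of the 9 genes, 16.8-fold.

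The monoamine genes were the lowest. cat-2 encodes tyrosine hydroxylase, the enzyme that commits tyrosine to dopamine, and is used by a few dopaminergic neurons. It had 1.83, 1.37 and 1.83 FPKM in homozygous larvae, against 1.305, 3.38 and 2.39 FPKM in heterozygous larvae, where replicate 2 was 2.59 times replicate 1. The embryos had 1.03, 2.02, 1.98, 2.43 and 0.563 FPKM of cat-2. tph-1 encodes tryptophan hydroxylase, the corresponding enzyme for serotonin. It had 0.803, 1.19 and 0.852 FPKM in homozygous larvae, against 0.752, 0.668 and 1.01 FPKM in heterozygous larvae, and 0.661, 0.958, 0.930, 2.15 and 0.509 FPKM in embryos. Its larval mean was below 1 FPKM, so it was the single gene of the 9 that was left out of the test between genotypes.

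The release genes were higher than the monoamine genes in every library, but unc-13 was below the loading gene unc-17 in 6 of 6 larval libraries. snb-1 encodes synaptobrevin, the vesicle SNARE that drives fusion, and was at 239.7, 296 and 289 FPKM in homozygous larvae, against 246, 269 and 286 FPKM in heterozygous larvae. The 5 embryo libraries had 262, 259.9, 329, 313 and 244 FPKM of snb-1. All 11 values lay close together, between the 96.9th and the 97.9th percentile of the genes of their library. rab-3 encodes a small GTPase of synaptic vesicles. It was at 28.2, 31.6 and 42.5 FPKM in homozygous larvae, against 34.3, 35.6 and 53.8 FPKM in heterozygous larvae, and at 29.6, 51.9, 50.3, 83.5 and 11.5 FPKM in embryos. unc-13 encodes the factor that primes docked vesicles for fusion. Its values were 11.8, 17.7 and 18.8 FPKM in homozygous larvae, against 12.3, 18.03 and 22.4 FPKM in heterozygous larvae, and 13.4, 19.7, 24.4, 29.8 and 5.08 FPKM in embryos. Both rab-3 and unc-13 were lowest in replicate 1 and highest in replicate 3 of either genotype.

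**Figure D1:**
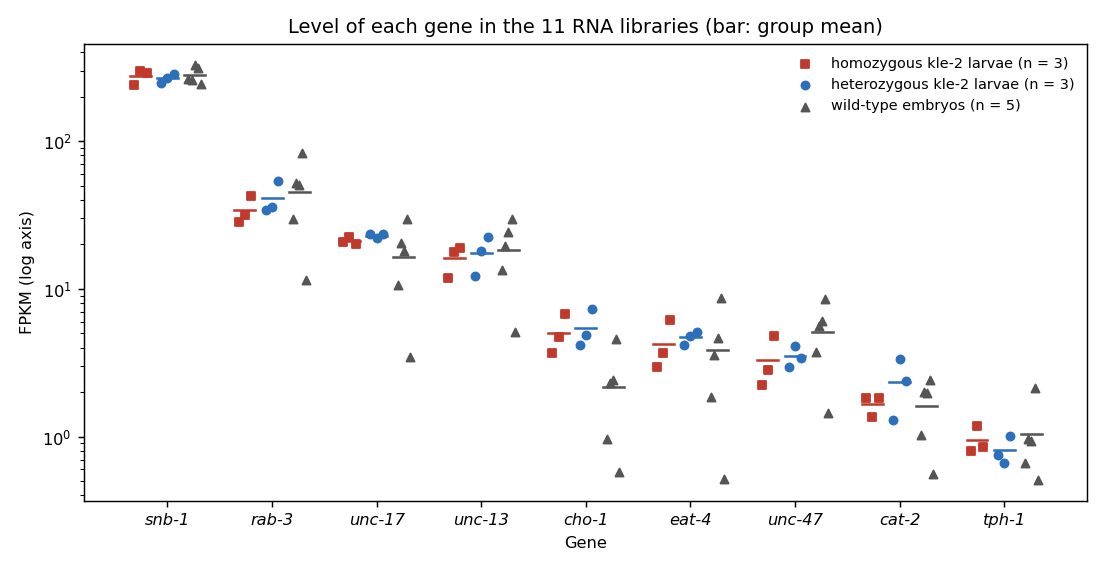
FPKM (log axis) of each of the 9 genes in every RNA library, with homozygous kle-2 larvae (squares), heterozygous kle-2 larvae (circles) and wild-type embryos (triangles) from left to right and a bar at each group mean. snb-1 lies between 239.7 and 329 FPKM in all libraries, the 2 larval groups overlap for every gene, and the embryo values of the other 8 genes spread most widely.

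The order of the mean levels was the same in both larval groups. The means ran from snb-1 (275 ± 30.9 FPKM in homozygous larvae and 267 ± 20.2 FPKM in heterozygous larvae, SD, n = 3 each) through rab-3 (34.1 ± 7.46 and 41.3 ± 10.9 FPKM), unc-17 (21.1 ± 1.13 and 22.9 ± 0.821 FPKM), unc-13 (16.1 ± 3.75 and 17.6 ± 5.09 FPKM), cho-1 (5.05 ± 1.56 and 5.47 ± 1.68 FPKM), eat-4 (4.25 ± 1.65 and 4.71 ± 0.464 FPKM), unc-47 (3.28 ± 1.33 and 3.49 ± 0.581 FPKM) and cat-2 (1.68 ± 0.267 and 2.36 ± 1.04 FPKM) to tph-1 (0.948 ± 0.210 and 0.810 ± 0.179 FPKM), each pair in that order of genotypes. Of neighbours in this order, cho-1 and eat-4 overlapped in range in both genotypes, eat-4 and unc-47 overlapped in homozygous larvae, and unc-17 overlapped unc-13, and unc-47 overlapped cat-2, in heterozygous larvae. The other neighbours did not overlap. In embryos the order was snb-1 (281 ± 37.0 FPKM, SD, n = 5), rab-3 (45.4 ± 27.0 FPKM), unc-13 (18.4 ± 9.60 FPKM), unc-17 (16.5 ± 10.0 FPKM), unc-47 (5.10 ± 2.66 FPKM), eat-4 (3.84 ± 3.10 FPKM), cho-1 (2.16 ± 1.56 FPKM), cat-2 (1.60 ± 0.775 FPKM) and tph-1 (1.04 ± 0.647 FPKM). Apart from snb-1 and rab-3, all neighbours in embryos overlapped in range. Within single libraries, rab-3 was above unc-13, unc-17 above unc-47 and cat-2 above tph-1 in 5 of 5 embryo libraries, whereas unc-13 was above unc-17 in 3 of 5.

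None of the 9 genes was called different between homozygous and heterozygous kle-2 larvae. With limma on log2(FPKM + 1), 0 of the 8 genes that could be tested passed an adjusted p of 0.05, while 15 of all 12837 genes tested did (0.117%), and 0 of the 8 had an unadjusted p below 0.05. In simulated data this fit recovered none of the 2-fold changes, the smallest simulated, so its count cannot exclude changes of that size or less. When limma was blocked on replicate number, 0 of the 8 passed, while 1082 of the 12837 genes did (8.43%), and 1 of the 8, rab-3, had an unadjusted p under 0.05 (0.0258). The values of homozygous and heterozygous larvae overlapped for all 9 genes. Over the genes tested, 7.29% had all 3 homozygous libraries above all 3 heterozygous ones, and 5.22% had them all below.

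The fitted differences were small, and their 95% intervals show how large a change the 6 libraries leave room for. The difference in rab-3 was -0.26 ± 0.24 on the log2(FPKM + 1) scale (SE, n = 3 each, limma adjusted p = 0.946), and with the block its SE was 0.08 and its adjusted p was 0.135 from limma. rab-3 was lower in the homozygous library of all 3 replicate pairs, as were cho-1 and unc-13. The blocked interval of the rab-3 difference ran from -0.47 to -0.05. For snb-1, the most abundant of the 9, the difference was 0.04 with a blocked interval from -0.15 to 0.23. For unc-17 it was -0.11 with a blocked interval from -0.35 to 0.12. For cat-2 it was -0.28 with the widest blocked interval, from -0.95 to 0.38. With 1 library left out, the cat-2 difference lay between -0.53 and -0.07, nearest to 0 without heterozygous replicate 2, and that of rab-3 between -0.42 and -0.06, nearest to 0 without heterozygous replicate 3. The remaining fitted differences were -0.10 for cho-1, -0.11 for unc-47, -0.16 for eat-4 and -0.11 for unc-13. The fitted difference was negative for 7 of the 8 genes, with a median of -0.11, beside a median of -0.0042 over all genes tested. Without homozygous replicate 1, 5 of the 8 were positive with a median of 0.04, and the median over all genes tested was then 0.09.

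**Figure D2:**
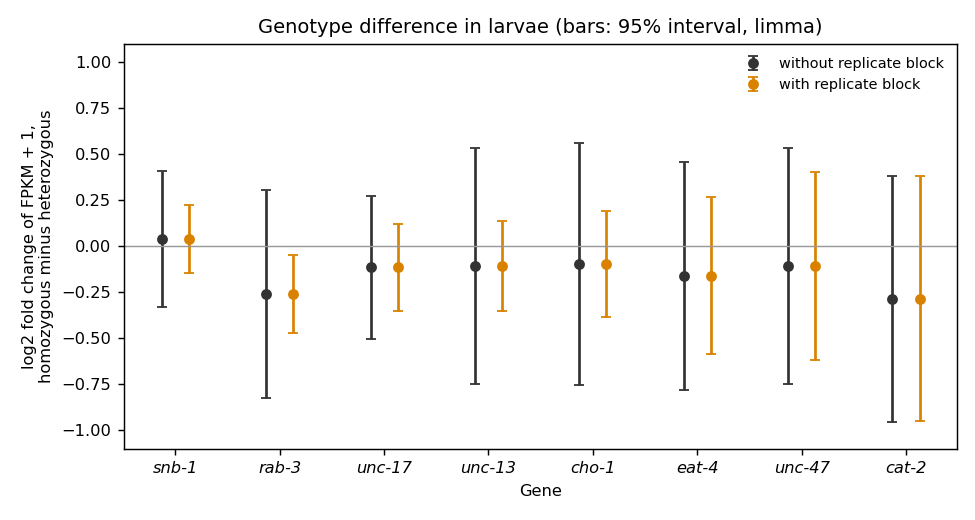
log2 fold change of FPKM + 1, homozygous minus heterozygous kle-2 larvae, for the 8 genes tested, with its 95% interval from limma without (dark) and with (orange) the replicate number as a block. All intervals include 0 except that of rab-3 with the block, from -0.47 to -0.05.

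Of the 9 genes, 3 lie on the chromosomes that the balancer hT2 carries, unc-13 on I and eat-4 and unc-47 on III. The others lie on II (cat-2, rab-3 and tph-1), IV (unc-17 and cho-1) and V (snb-1). The fitted differences of these 3 genes, -0.11, -0.16 and -0.11, were within the range of the others. Of the 10 tested genes nearest to eat-4 in gene order, 5 had a positive difference and 0 passed the test with the block, and of the 10 nearest to unc-47, 6 had a positive difference and 0 passed.

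Few genes of the wider neuronal set differed between the genotypes. Of 131 genes in 10 fixed lists of transmitter, receptor, vesicle, neuropeptide, axon and neuron fate genes (the 9 genes among them), 128 were found, and those above the minimum were tested. Of the tested genes, 0 passed the limma test without the block, and 3 passed with it, or 2.52%, against 8.43% of all genes tested. Their median difference was -0.10 and 42 were positive. The lists were drawn up with earlier results of these data known, so their counts are descriptions.

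The 3 genes were unc-64, glt-1 and gar-2. unc-64 encodes syntaxin, the plasma membrane SNARE that binds synaptobrevin. It measured 75.0, 90.6 and 104.3 FPKM in homozygous larvae, against 44.3, 47.9 and 57.9 FPKM in heterozygous larvae, so the groups did not overlap. Its log2 fold change was 0.83 ± 0.19 (SE), and it was higher in homozygous larvae by the blocked test (limma adjusted p = 0.195 without the block and 0.00887 with it). unc-64 lies near the right end of chromosome III, where 96.1% of the protein-coding genes of that chromosome come before or at it in gene order. All 10 of the nearest tested genes, 5 on each side, also had positive differences, between 0.53 and 1.24 with a median of 0.98, their groups did not overlap either, and 8 of them passed with the block. The difference of unc-64 thus lay inside the range of its neighbours, and the part of the balancer chromosome in it cannot be told apart from that of kle-2.

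glt-1, a glutamate transporter of the plasma membrane, was at 155, 181 and 222 FPKM in homozygous larvae, against 116, 111 and 169 FPKM in heterozygous larvae. It was higher in homozygous larvae by the blocked test (limma adjusted p = 0.606 without the block and 0.0371 with it). gar-2, a muscarinic acetylcholine receptor, was at 5.55, 8.51 and 10.4 FPKM in homozygous larvae, against 9.30, 11.6 and 15.2 FPKM in heterozygous larvae. It was lower in homozygous larvae by the blocked test (limma adjusted p = 0.734 without the block and 0.0483 with it). Both genes overlapped between the groups and separated only within replicate pairs. Of the 10 genes nearest to gar-2 on chromosome III, 6 had positive differences and 1 passed with the block.

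In the other lists no gene passed either test, and their extremes are given as values. For acetylcholine synthesis, loading and clearance (6 genes tested, median difference -0.17), the acetylcholinesterase gene ace-2 had the lowest difference, -0.47, and ace-1, another acetylcholinesterase gene, the highest, -0.0022. The GABA list (8 genes, median -0.21) ran from -0.43 for unc-46, which encodes a protein that sorts UNC-47 to vesicles, to 0.17 for unc-25, the GABA-synthesizing glutamate decarboxylase. Among 19 monoamine genes (median -0.05) the serotonin-gated chloride channel gene mod-1 was lowest, at -0.38, and cat-4, which encodes GTP cyclohydrolase of the cofactor pathway for dopamine and serotonin synthesis, was highest, at 0.49. mod-1 measured 2.70, 2.40 and 2.55 FPKM in homozygous larvae, against 3.45, 3.75 and 3.64 FPKM in heterozygous larvae, without overlap. Over all neuronal list genes tested, 4 had all homozygous libraries above the heterozygous ones (unc-64 and ceh-10 among them). Another 5 had them all below (mod-1, mec-12 and unc-55 among them). As shares of the list genes tested, both counts were below the shares over all genes tested, 7.29% above and 5.22% below. Such a lack of overlap was thus no more frequent in the lists than elsewhere.

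The vesicle recycling list was the only one of the 10 with a positive median, 0.14 over 7 genes, and ran from -0.11 for unc-41 (stonin) to 0.31 for unc-57 (endophilin). Neuropeptide processing genes ran from -0.05 for egl-3, the proprotein convertase, to 0.34 for pamn-1, an amidating enzyme, which was higher in the homozygous library of all 3 replicate pairs (unadjusted p = 0.0280 and adjusted p = 0.141 from limma with the block). The general neuronal and axonal genes ran from -0.24 for mec-12, an alpha-tubulin of touch neurons, to 0.25 for unc-33, an axon guidance protein of the CRMP family. The neuron fate transcription factors ran from -0.58 for unc-55, a nuclear receptor of motor neurons, to 0.47 for the homeobox gene ceh-10. The median was -0.08 for the 22 genes of the release machinery, -0.10 for 12 acetylcholine receptor genes, -0.11 for 15 glutamate genes, -0.01 for 5 neuropeptide processing genes, -0.04 for 11 neuronal identity genes and -0.16 for 14 fate genes.

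Markers of other tissues also differed between the larval groups. The summed level of 6 hypodermis markers was 445 to 2535 FPKM in homozygous larvae, against 950.5 to 5208 FPKM in heterozygous larvae, and replicate 3 was lowest in both. Most of this sum was sqt-3, which was lowest in replicate 3 of both genotypes, as were rol-6 and dpy-7. In contrast, elt-3, lin-26 and nhr-25 were not lowest in replicate 3 of either genotype. With the block, 4 of the 6 markers were lower in homozygous larvae, where the same fit called 8.43% of all genes tested. The summed level of 8 germline and early embryo markers was 114 to 133 FPKM in homozygous larvae, against 87.8 to 97.1 FPKM in heterozygous larvae, with 2 of the 7 tested called higher with the block. Summed muscle markers (6 genes) were at 4087 to 4236 FPKM in homozygous larvae, against 3240.2 to 3361 FPKM in heterozygous larvae, with 2 called higher with the block. Of these 6 muscle markers, 4 had positive differences, and the lowest was -0.10 for tnt-3. Intestine markers (6 genes) summed to 5991 to 6919 FPKM in homozygous larvae, against 4174 to 4987 FPKM in heterozygous larvae. Most of this sum was the protease gene asp-1, the 1 marker called higher with the block, and 4 of the 6 had negative differences, down to -0.58 for elt-2. The 5 pharynx markers summed to 435 to 468 FPKM in homozygous larvae, against 307 to 436 FPKM in heterozygous larvae, with 0 called. No marker of these 5 lists was at 0 in any larval library, and the part of tissue makeup in the differences above was not tested.

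In wild-type embryos, 8 of the 9 genes moved together between libraries. unc-17, cho-1, unc-47, eat-4, cat-2, tph-1, rab-3 and unc-13 were all highest in replicate 4 and lowest in replicate 5, and snb-1 was also lowest in replicate 5 but highest in replicate 3. The highest value exceeded the lowest by 4.22-fold (tph-1), 4.31-fold (cat-2), 5.86-fold (unc-13), 5.90-fold (unc-47), 7.28-fold (rab-3), 7.88-fold (cho-1), 8.61-fold (unc-17) and 16.8-fold (eat-4), but by 1.35-fold for snb-1. Over the 12600 genes with an embryo mean of at least 1 FPKM and a value above 0 in all 5 libraries, the median was 2.04-fold, 28.2% exceeded 3-fold, and 19.4% were both highest in replicate 4 and lowest in replicate 5. snb-1 was therefore among the steadier genes, with a smaller fold in only 8.15% of genes, and eat-4 among the most variable, with a smaller fold in 96.9%.

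By the steps between low FPKM values, replicate 5 had 2.11 times the reads of replicate 1 and replicate 4 had 1.76 times, the highest of the 5 libraries. The part of depth in the spread was not tested. On the log2(FPKM + 1) scale, the median deviation of the 9 genes from their own embryo means was -0.30, 0.26, 0.36, 0.86 and -1.18 in replicates 1 to 5, against -0.0032, -0.02, 0.10, 0.04 and -0.09 over all genes. The 107 other neuronal list genes above the same minimum followed, with -0.10, 0.09, 0.32, 0.49 and -0.80. Of these, 93 (86.9%) were lowest in replicate 5, against 41.9% of all 12600 genes, and 66 were also highest in replicate 4.

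The neuronal lists differed in how far they followed. All 17 monoamine genes above the minimum were highest in replicate 4 and 16 were also lowest in replicate 5, with a median of 4.46-fold between the highest and the lowest library. The glutamate list had a median of 6.28-fold over 14 genes and the GABA list 4.98-fold over 7 genes. The neuron fate transcription factors had a median of 1.69-fold over 16 genes, and 4 of them followed the same pattern. The vesicle recycling genes, which include factors used by all cells for endocytosis, had a median of 1.4995-fold over 7 genes.

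Markers of some other tissues differed between the same libraries. Summed muscle markers were at 882, 1162, 1205, 1529.6 and 487 FPKM in embryo replicates 1 to 5, and 5 of the 6 were lowest in replicate 5. Summed pharynx markers were likewise highest in replicate 4, at 603 FPKM, and lowest in replicate 5, at 224 FPKM. Summed intestine markers were also highest in replicate 4, at 1529.2 FPKM, and lowest in replicate 5, at 351 FPKM. By single genes, 3 of the 5 pharynx markers were lowest in replicate 5 and highest in replicate 4. Of the 6 intestine and of the 6 hypodermis markers, 3 each were lowest in replicate 5, and 2 and 1 of them were also highest in replicate 4. The summed hypodermis markers were highest in replicate 2 and lowest in replicate 5. The summed germline and early embryo markers were at 617, 329, 320.3, 397 and 661 FPKM, highest where the neuronal genes were lowest. Of these 8 markers, 0 were lowest in replicate 5 and 4 were highest there, and the others were highest in replicate 1. pie-1, which represses transcription in the germline precursor cells of the early embryo, was at 72.3, 40.6, 39.5, 50.4 and 110.0 FPKM. The median log2 deviation of the germline and early embryo markers was 0.43, -0.41, -0.47, -0.10 and 0.51 in replicates 1 to 5. The medians of the 9 genes and of the 107 other neuronal list genes had the opposite sign in every embryo library. In replicate 4 the median of the germline and early embryo markers was above those in replicates 2 and 3, and the neuronal genes were also higher in replicate 4. The part of embryo age in the spread of the neuronal genes was not tested.

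**Figure D3:**
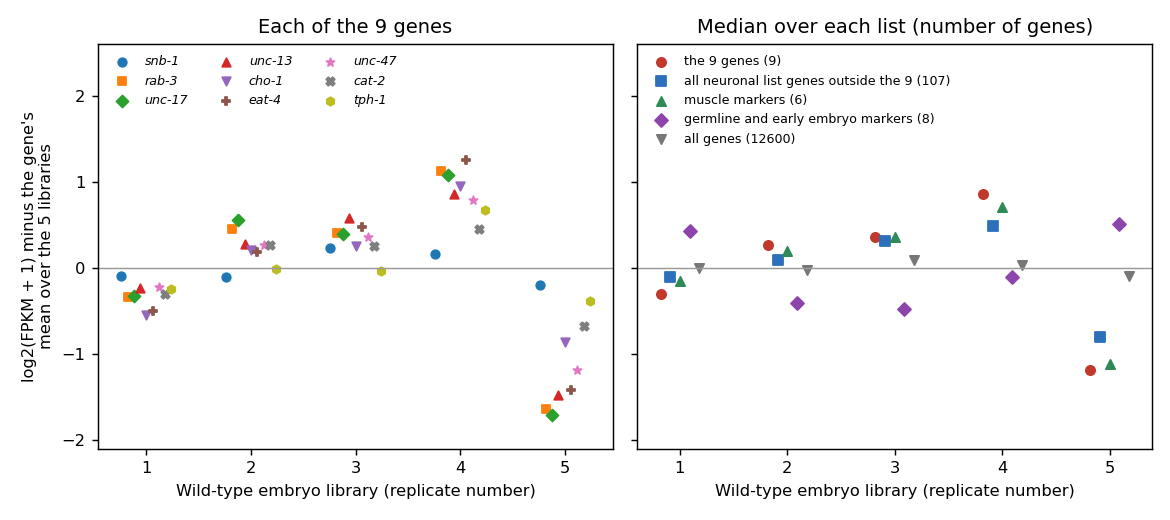
Deviation of log2(FPKM + 1) from the mean of the 5 wild-type embryo libraries, by library, for each of the 9 genes (left) and as the median over the 9 genes, 107 other neuronal list genes, 6 muscle markers, 8 germline and early embryo markers and 12600 genes (right). The 9 genes have a median of 0.86 in replicate 4 and -1.18 in replicate 5, where the germline and early embryo markers stand at 0.51.

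The larval and embryo libraries were made from animals of another stage, strain and preparation and were deposited separately, so their levels are set side by side without a test. On FPKM, 0 of the 9 genes had all 3 heterozygous larval libraries above all 5 embryo libraries, and 0 had them all below, against 22.1% above and 39.8% below over the 13600 genes with a mean of at least 1 FPKM over the 11 libraries (8 of the 9 are among these). Of the 9 genes, 8 spread 4.22- to 16.8-fold among the embryo libraries, against a median of 2.04-fold over all genes. Such a spread makes a separation hard to reach, so the count of 0 does not show that levels were alike. Without embryo replicate 4, unc-17 and cho-1 were above in heterozygous larvae. On the percentile rank within each library, which does not depend on how a library was scaled, 2 of the 9 genes were above in heterozygous larvae, unc-17 and cho-1, and 0 were below, against 28.9% above and 32.1% below over the same 13600 genes. In homozygous larvae only cho-1 was above by rank. cho-1 ranked at the 52.9th to 56.3rd percentile in homozygous larvae and at the 53.4th to 57.2nd in heterozygous larvae, against the 38.5th to 48.4th in embryos.

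Ratios between genes of the same library cancel any scaling of that library, but do not tell which gene of a pair differs. Of the 36 pairs among the 9 genes, 30 kept the same order in all 11 libraries. The larval and embryo ratios did not overlap for 10 of the 36, against 53.6% of all pairs among the 12216 genes with a mean of at least 1 FPKM and a value above 0 in all 11 libraries. One pair stood in opposite order throughout: cho-1 was above unc-47 in 6 of 6 larval libraries and below it in 5 of 5 embryo libraries. The ratio of cho-1 to unc-47 was 1.66, 1.66 and 1.42 in homozygous larvae and 1.41, 1.19 and 2.15 in heterozygous larvae, against 0.256, 0.409, 0.395, 0.532 and 0.399 in embryos. cho-1 was also higher relative to its cholinergic partner unc-17 in larvae, with ratios of 0.177, 0.211 and 0.336 in homozygous larvae and 0.177, 0.222 and 0.314 in heterozygous larvae, against 0.0898, 0.113, 0.133, 0.152 and 0.167 in embryos.

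Relative to unc-17, the GABA transporter gene was lower in larvae. The ratio of unc-47 to unc-17 was 0.106, 0.127 and 0.237 in homozygous larvae and 0.126, 0.186 and 0.146 in heterozygous larvae, against 0.351, 0.275, 0.337, 0.286 and 0.418 in embryos. eat-4 was above unc-47 in 6 of 6 larval libraries, with ratios of 1.34, 1.29 and 1.28 in homozygous larvae and 1.43, 1.17 and 1.49 in heterozygous larvae. In embryos the ratio of eat-4 to unc-47 was 0.492, 0.636, 0.756, 1.01 and 0.355, so they were level in replicate 4 and unc-47 was above in the other 4. Against cat-2, tph-1, snb-1, rab-3 and unc-13, the ratios of unc-47 overlapped between larvae and embryos. Of the 10 pairs, 6 involved cho-1, and the 4 others were unc-17 with unc-47, rab-3 and unc-13, and unc-47 with eat-4. The ratios of homozygous and heterozygous larvae overlapped in all 36 pairs, while 17.1% of all pairs among the 12216 genes did not overlap. Within replicate pairs, 9 of the 36 ratios differed in the same direction in all 3, against 49.9% of all pairs of genes. Among the 9 were rab-3 to snb-1, at 0.118, 0.107 and 0.147 in homozygous larvae, against 0.140, 0.132 and 0.188 in heterozygous larvae, and unc-17 to snb-1, at 0.0871, 0.0755 and 0.0696 in homozygous larvae, against 0.0951, 0.0819 and 0.0818 in heterozygous larvae. These 2 were chosen after their values were seen.

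**Figure D4:**
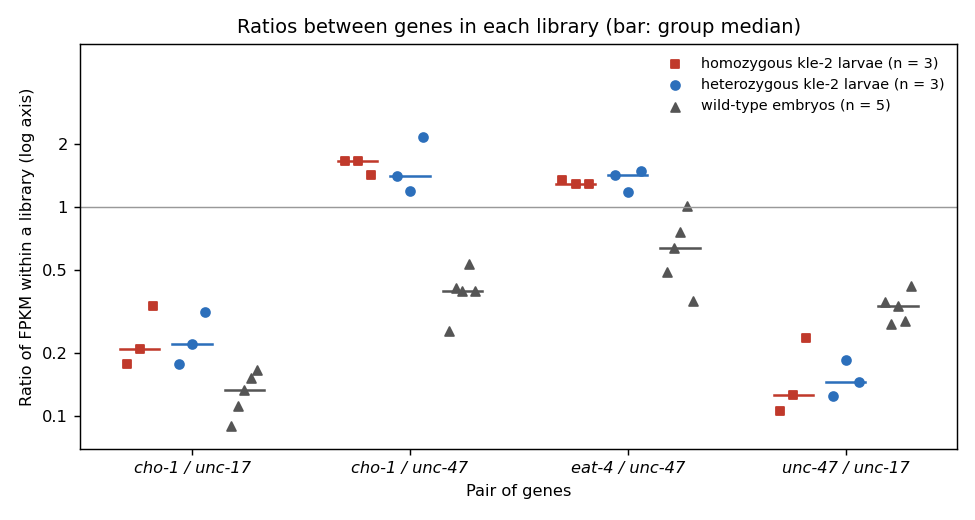
Ratio of FPKM between 2 genes within each library (log axis) for 4 pairs, with homozygous kle-2 larvae, heterozygous kle-2 larvae and wild-type embryos from left to right and a bar at each group median. The ratio of cho-1 to unc-47 is above 1 in 6 of 6 larval libraries and at most 0.532 in embryos, and the ratio of unc-47 to unc-17 is lower in larvae than in embryos without overlap.

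The genes whose pattern over the 11 libraries was most like each of the 9 were found by Pearson's r of log2(FPKM + 1) among the 13600 genes. The 11 libraries comprise 2 stages and 2 strains, and libraries of a group share both, so r also reads the difference between larvae and embryos and these values are descriptions. For cho-1 the closest were Y102A11A.3 (r = 0.99), the metabotropic glutamate receptor gene mgl-2 (r = 0.99) and mlt-7 (r = 0.99), and 162 genes had r above 0.95. For rab-3 they were mpz-1 (r = 0.99), the GABA-B receptor subunit gene gbb-2 (r = 0.98) and tag-180 (r = 0.98), and for unc-13 they were cdka-1, unc-105 and dpf-1 (r = 0.99 each). unc-17 was closest to T21B6.3, glb-11 and npr-23 (r = 0.98 each), eat-4 to seb-3 (r = 0.99), C03H5.6 (r = 0.98) and the potassium channel gene egl-36 (r = 0.98), and unc-47 to nas-30, the innexin gene unc-7 and sol-1 (r = 0.97 each). The 3 remaining genes had looser matches and no gene with r above 0.95. snb-1 was closest to R08D7.7 (r = 0.95), F21C10.7 (r = 0.94) and hipr-1 (r = 0.94), cat-2 to F22F4.4 (r = 0.91), pbo-6 (r = 0.90) and Y57A10C.9 (r = 0.89), and tph-1 to nssp-33 (r = 0.88), pqn-36 (r = 0.87) and cnnm-3 (r = 0.85). Among these 27 places, 2 were held by genes of the fixed neuronal lists, mgl-2 and gbb-2.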

How the data were processed

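RNA was measured in 3 homozygous and 3 heterozygous kle-2 larval libraries and 5 wild-type embryo libraries, grouped by GEO's labels. The authors aligned stranded single-end reads to WS220 with TopHat and deposited FPKM per gene from Cufflinks 2.0.2 with supplied annotation. The larval table repeated 2 rows identically, and 1 copy of each was kept. The binding peaks of the series were not used here, because no gene positions of WS220 were at hand. Symbols and gene order came from the RefSeq table of WBcel235, which held 19878 of the 20376 IDs.

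Homozygous and heterozygous larvae were compared with limma 3.58.1 (R 4.3.3, intensity trend) on log2(FPKM + 1) for genes with a mean of at least 1 FPKM, Benjamini-Hochberg adjusted, so fold changes of low genes are understated. FPKM are not counts, and the count test of the authors could not be repeated. The fit was tested on simulated data. Without the block it recovered none of the 2-fold changes, the smallest simulated, and with the block most of them. Changes were simulated only in genes with higher mean levels than cho-1, eat-4, unc-47 and cat-2, so recovery was not shown for these genes. Deviations from group means correlated at 0.44, 0.55 and 0.62 between same-numbered larval libraries and at most -0.02 between others, so the numbers pair the libraries. The study names no block, so the fit without it was set as the main one. That fit leaves the pairing out, so results with the block are given beside it. Alternatives were a pseudocount of 0.1, no filter, a mean of at least 5 FPKM, quantile normalization, median centring, no trend, the block and each library left out.

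The text names the 9 genes, kle-2, list genes called with or without the block (otherwise each list's largest and smallest difference), and the 3 genes most like each of the 9 by Pearson's r. unc-74, lev-10 and cha-1 of the lists were not matched to a row. Genes and lists were chosen with earlier results of these data known. pie-1 was named after its values were seen.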

Additional observations from a re-analysis of the deposited data

Results flagged for a closer look

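In wild-type embryos, tph-1, the serotonin synthesis gene, stood out in 1 library. Replicate 4 had 2.15 FPKM, and the other embryo libraries had 0.661, 0.958, 0.930 and 0.509 FPKM. The gap to the next library was 0.726 of the whole range, over the limit of 0.71 for 5 samples. Chance alone gives such a gap in about 1 of 20 groups, and 10 genes were looked at. The other 7 genes that were highest in replicate 4 did not pass this limit.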

How the results depend on the processing

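The count of called genes among the 9 was 0 under every alternative run, over the 8 tested genes, or 9 with no filter on low values and 5 with a mean of at least 5 FPKM, with smallest adjusted p-values among them from 0.135 with the block to 0.9998. tph-1 was tested only with no filter on low values. The number of genes called over the whole table was 15, against 3 with no filter on low values, 36 with quantile normalization, 7 with no trend, 1082 with the replicate block that pairs the larval libraries, and 0 to 28 when 1 larval library was left out. With the block, kle-2 was called at a log2 difference of -0.97. The signs of unc-17, cat-2 and rab-3 differences were the same in all settings that tested them, between -0.15 and -0.08, -0.53 and -0.07, and -0.42 and -0.06 with 1 larval library left out. snb-1 turned to -0.00079 with quantile normalization, and leaving out 1 larval library moved it between -0.018 and 0.14. The same left cho-1 between -0.29 and 0.11, unc-47 between -0.34 and 0.077, eat-4 between -0.40 and 0.018, and unc-13 between -0.33 and 0.088. These signs turned without homozygous replicate 1 (cho-1, unc-47, eat-4 and unc-13), without heterozygous replicate 3 (cho-1 and unc-13), and for snb-1 without homozygous replicate 2 or 3 or heterozygous replicate 1. The causes were not tested. The count of genes above embryos in heterozygous larvae was 0 on FPKM, 2 by percentile rank, and 0 to 2 with 1 library left out (1, cho-1, without heterozygous replicate 1, and 2, unc-17 and cho-1, without embryo replicate 4). No embryo mean of the 9 genes moved by more than 1 SD with the median or without any embryo library. With 5 values neither change can move a mean by more than 1 SD, so this does not tell how steady the means are. The files give no read counts, so the counting error of low genes such as tph-1 and cat-2 is unknown.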
